A study of Mus musculus with 27 samples.

Results

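Limb identity genes encode the transcription factors that set where a limb forms, whether it becomes a forelimb or a hindlimb, and how muscle precursors enter it. The 9 genes described here are Tbx2, Tbx3, Tbx4, Tbx5, Tbx15, Pitx1, Isl1, Lbx1 and Meox2. They were chosen by name and by no methylation filter, although earlier results of these data were known. Of the 9, 8 had measured positions. DNA methylation was measured in 27 libraries of C2C12 cells, a mouse myoblast line that forms myotubes when serum is lowered. Every library came from cells differentiated in 2% horse serum and given a 2 h shock with 50% horse serum; 3 replicates were taken every 6 h from 12 h to 60 h, at 9 time points, and no unshocked group was compared. C2C12 is a single cloned line from adult mouse hindlimb muscle, kept in culture, so the levels describe that line and no limb bud. The assay was reduced representation bisulfite sequencing (RRBS), which reads cytosines in CpG dinucleotides close to cut sites of the enzyme MspI, spelt MpsI in the labels.

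In the limb bud, Tbx5 acts in the field that forms the forelimb, where it starts limb outgrowth. Isl1 acts early in the field that forms the hindlimb, Pitx1 gives the hindlimb its identity, and Tbx4, a close relative of Tbx5, works in hindlimb outgrowth. Tbx2 and Tbx3 are T-box repressors used in limb patterning, Tbx15 shapes the skeleton and acts in glycolytic muscle, and Lbx1 and Meox2 are homeobox genes of migrating limb muscle precursors. Dense CpG stretches at gene starts are usually unmethylated in mammalian cells.

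A window ran from 5 kb before each gene start to 1 kb past its end, on the mm10 build. The windows held 947 positions, of which 810 had a value in all 27 libraries, out of 871894 such positions in the table. Positions on both strands of a CpG count separately, and close positions are not independent. Levels changed gradually between neighbours. Tbx2 positions 971, 972, 980 and 981 bp past its start averaged 44.4%, 44.7%, 46.5% and 46.7%. Whether the levels had been smoothed along positions was not tested. Each window was divided into an upstream stretch (5 kb to 1 kb before the start), the start (1 kb before to 500 bp after it), the body and the end (the last 500 bp to 1 kb past the gene). Runs of positions with gaps of at most 200 bp, divided at these borders, are called pieces. There were 24 pieces, with 12 at starts, 9 in bodies, 3 upstream and 0 at ends. The 3 hindlimb genes had 134 positions (Pitx1), 33 (Tbx4) and 73 (Isl1). The forelimb gene Tbx5 had 44, Tbx2 129, Tbx3 176, Tbx15 56 and Lbx1 165, and Meox2 had 0 positions in the table. Gene starts and ends are the outermost ones over all RefSeq transcripts. For Tbx5, 6 of 7 transcripts are predicted, and for Pitx1 and Tbx15 2 of 3 are, so that other transcripts can start inside the body as used here. The measured Tbx5 and Pitx1 pieces may lie before those inner starts, whose places were not annotated in the sources used here.

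The following stretches show what the assay could read, with the letters taken from RefSeq (build GRCm38.p6, which is mm10). Capitals mark CpGs with a value in all 27 libraries. The Isl1 stretch (chr13:116309639-116309938, minus strand) is a measured hindlimb gene start. Gm5563 (chr5:119831937-119832236, minus strand), a long noncoding RNA gene, has its start inside the only measured Tbx5 piece. The Meox2 stretch (chr12:37108290-37108589, plus strand) belongs to the member without a value.
Isl1: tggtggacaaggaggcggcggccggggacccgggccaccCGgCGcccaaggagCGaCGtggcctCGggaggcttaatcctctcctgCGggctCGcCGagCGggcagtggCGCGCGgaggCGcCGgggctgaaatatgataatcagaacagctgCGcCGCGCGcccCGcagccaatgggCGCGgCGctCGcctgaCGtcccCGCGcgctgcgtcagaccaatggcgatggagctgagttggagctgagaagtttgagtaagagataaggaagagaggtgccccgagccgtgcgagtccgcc
Gm5563: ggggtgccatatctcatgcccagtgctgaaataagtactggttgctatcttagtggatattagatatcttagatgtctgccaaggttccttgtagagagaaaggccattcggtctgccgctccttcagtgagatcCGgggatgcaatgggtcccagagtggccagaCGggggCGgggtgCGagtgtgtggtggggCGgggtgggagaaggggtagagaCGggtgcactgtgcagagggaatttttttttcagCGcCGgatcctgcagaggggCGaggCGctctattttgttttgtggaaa
Meox2: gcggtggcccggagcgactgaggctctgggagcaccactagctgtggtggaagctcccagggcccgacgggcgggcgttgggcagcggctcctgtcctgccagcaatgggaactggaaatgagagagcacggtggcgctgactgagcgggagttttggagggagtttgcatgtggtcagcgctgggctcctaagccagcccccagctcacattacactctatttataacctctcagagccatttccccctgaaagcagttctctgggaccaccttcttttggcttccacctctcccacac

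The Isl1 stretch holds 37 CpGs, of which 26 were measured, and 5.58% of 32851 mouse promoter stretches of the same length hold as many. It contains the motif CCGG, the same on both strands and the sequence that MspI cuts, 4 times, and 13.3% of the promoters hold it as often. The Gm5563 stretch holds 12 CpGs, 10 of them measured, and CCGG 2 times, as do 32.6% of the promoters or more often. The Meox2 stretch also holds 12 CpGs, but CCGG only 1 time, as do 52.8% of the promoters or more often, and no capital appears in it. The mean level was 15.7% ± 5.85 in the Isl1 stretch and 7.08% ± 2.95 in the Gm5563 stretch (SD, n = 27 libraries). RefSeq rows for the starts of Tbx2, Tbx3, Tbx5, Tbx15, Pitx1 and Lbx1 were not used here.

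Most member starts carried intermediate methylation. Tbx4 was the highest at 55.9%, Pitx1, Tbx15, Isl1 and Lbx1 lay between 21.1% and 29.9%, Tbx2 was at 14.1%, and Tbx3 alone was under 10%. Of the 7 members with a measured start, 1 was under 10%, 5 lay at 10 to 50% and 1 at 50% or more. Over the 10486 genes with a measured start, 71.8% were under 10%, 21.9% at 10 to 50% and 6.29% at 50% or more. The median start level was 21.2% over the members and 3.47% over all genes. These are descriptions, with no test of the list.

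**Figure D1:**
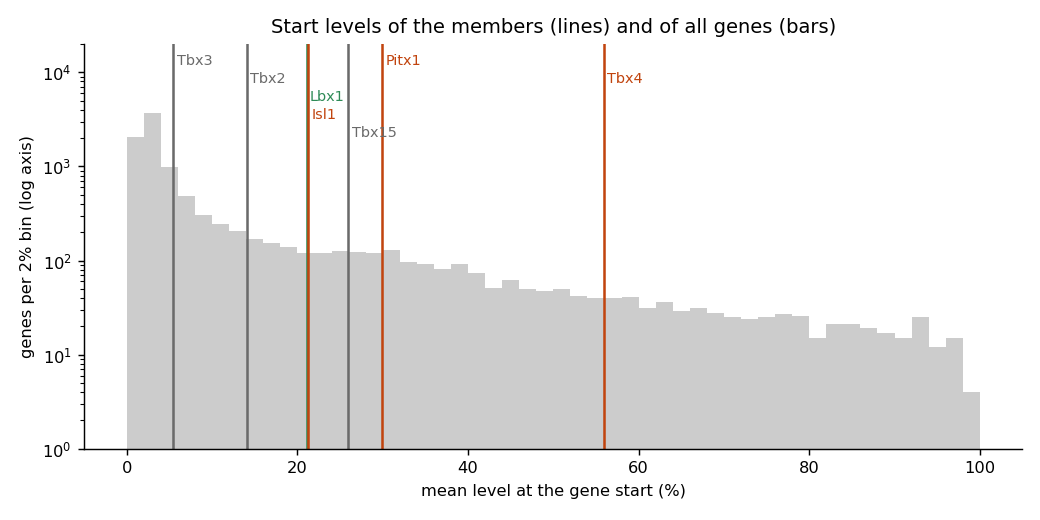
Mean level at the gene start in percent (x axis) for all 10486 genes (bars, genes per bin on a log axis) and for the 7 members with a measured start (lines). Tbx4 at 55.9% lies far to the right of the median of all genes at 3.47%, and Tbx3 at 5.42% lies closest to it.

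The hindlimb gene Tbx4 (chr11:85886367-85916097, plus strand) had a start level of 55.9% ± 3.96 (SD, n = 27), with 47.5% in the lowest library, a median of 55.9% and 64.0% in the highest. All its libraries lay above the highest library of Pitx1, at 41.7%. Tbx4 has 2 RefSeq transcripts, and this level covers the outer start; the promoter stretch of a second start farther in (chr11:85896515-85896814) had 0 of its 8 CpGs measured. Among all genes with a measured start, 94.95% had a lower mean level than Tbx4. Within the piece the level dipped before the gene start and was high after it. In the 100 bp before the start it was 33.5% ± 7.18, and in the first 100 bp of the gene it was 74.6% ± 6.68. The 4 bins of 100 bp from -500 bp up to the dip averaged 49.8 to 66.9%.

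Pitx1 (chr13:55825044-55836190, minus strand), the hindlimb homeobox gene, had a start level of 29.9% ± 4.55, with a lowest value of 21.8%, a median of 30.1% and a highest of 41.7%. The level rippled along the start and no 100 bp bin of it was under 10%. It was 47.2% ± 5.12 in the bin from -400 bp, 14.1% ± 5.09 in the next 100 bp, and 42.1% ± 6.53 in the first 100 bp of the gene. Upstream, from -1264 to -1043 bp, the level was 12.2% ± 3.17. The upstream level was lower than the start level in 27 of 27 libraries, by a mean difference of -17.7 points ± 5.82 (SD; adjusted p = 1.75e-15, limma with Benjamini-Hochberg adjustment). Of 1415 genes with both parts, 18.9% were called lower upstream and 64.2% higher. The 9 body positions of Pitx1 averaged 34.9% ± 11.8, a wide spread with 7.76% in the lowest library and 53.6% in the highest. The body minus start difference of 5.01 points ± 13.4 was not called (adjusted p = 0.0725, limma), and was higher in 20 of 27 libraries. Of 5342 genes with a body and a start, 50% were called higher in the body and 21.1% lower. The Pitx1 body difference passed the threshold of 0.05 when single libraries were left out: 5.96 points without 12 h replicate 3, 6.51 without 30 h replicate 3, 5.76 without 60 h replicate 2 and 5.62 without 60 h replicate 3. It also passed as a median of positions, at 7.25 points, and as a mean over 80 bp bins, at 6.75 points.

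Isl1 (chr13:116298270-116309688, minus strand), the early hindlimb factor, had a start level of 21.2% ± 3.58, with a lowest value of 14.8%, a median of 21.0% and a highest of 30.9%. All 73 of its positions lay between -567 and -48 bp of the gene start. The outermost bin with values, from -600 bp, stood at 41.6% ± 10.0, and the bin from -200 bp at 15.1% ± 5.48. The printed Isl1 sequence covers the part of this piece nearest the start, and its capitals stop short of the start.

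**Figure D2:**
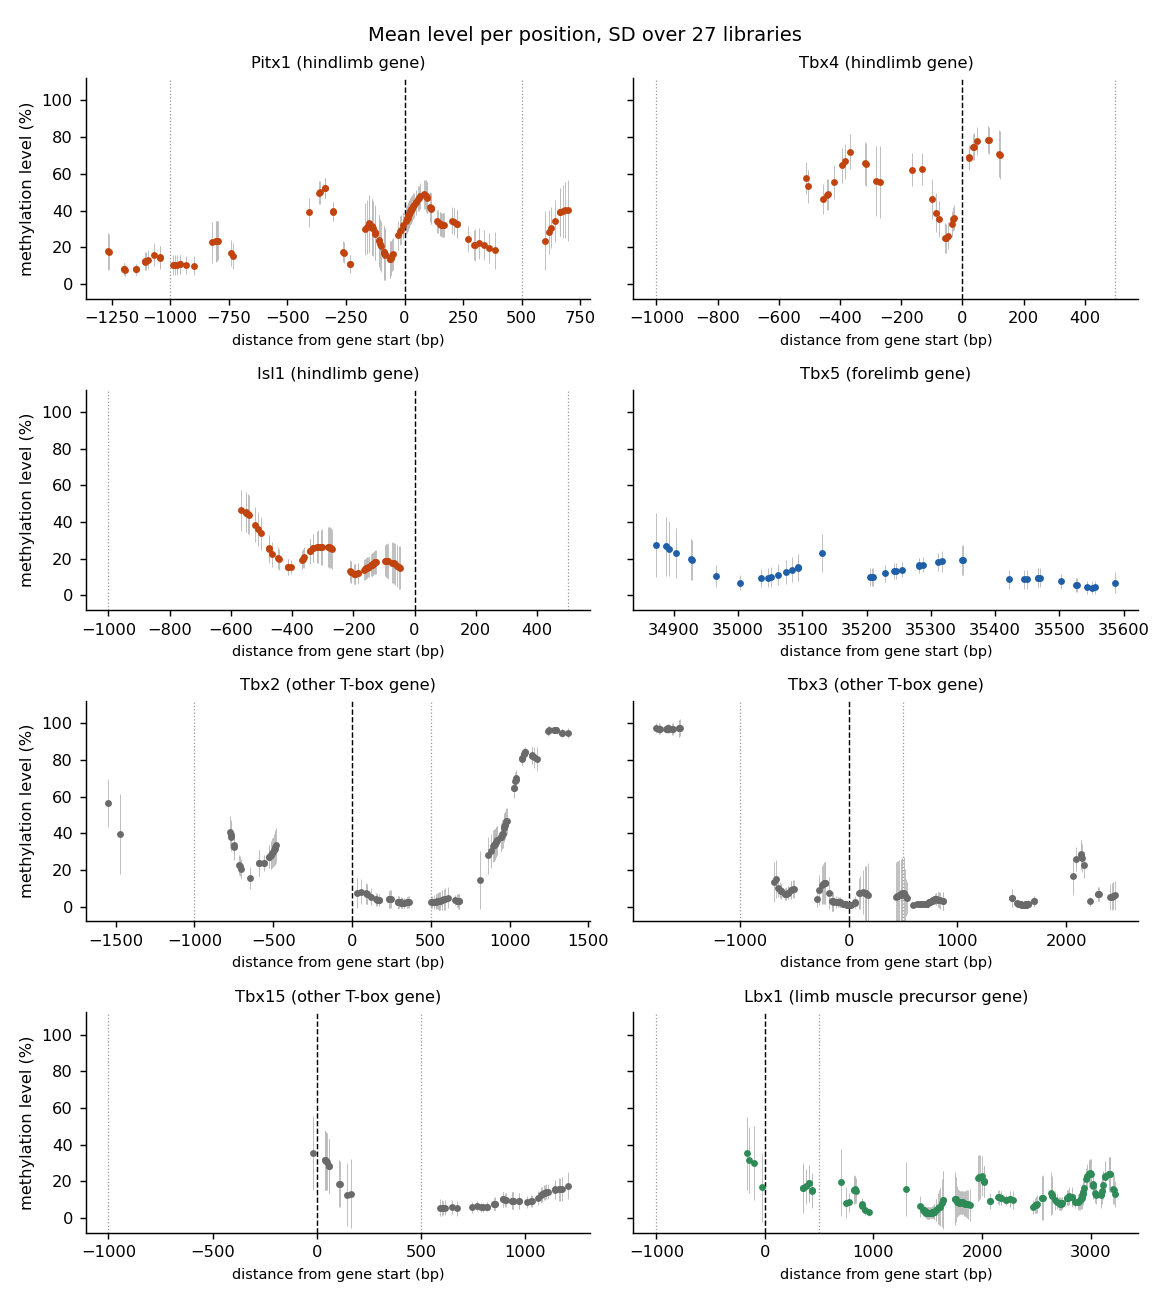
Mean methylation level in percent (y axis) of each position with a value in all 27 libraries against its distance from the gene start in bp (x axis, different for each gene); vertical bars are the SD over 27 libraries, the dashed line is the gene start and the dotted lines bound the start part. Tbx2 passes from near 0 inside the gene to over 90% in its body, Tbx4 dips just before its start, and Tbx5 has values in 1 run far inside its gene bounds.

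Tbx5 (chr5:119796514-119885220, plus strand), the forelimb factor, had no measured position at its start. Its 44 positions formed 1 run in the body, 34873 to 35587 bp past the outermost gene start, which overlaps the start of Gm5563. The run counts as body only by that outermost start, and may lie before the start of another Tbx5 transcript. There the level was 13.2% ± 3.10, with 8.73% in the lowest library, a median of 12.9% and 20.5% in the highest. Among the 7232 genes with a measured body, 59.15% had a lower mean than Tbx5, so that the run lay above the middle of all bodies, whose median was 7.78%. The first 3 positions of the run averaged 26.5% ± 16.1 and the 7 in the bin from 35500 bp averaged 5.54% ± 3.15.

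The comparison of starts between hindlimb and forelimb genes could not be made, because Tbx5 has no start value. Levels over the whole window of each gene were compared in its place, so that the starts of Tbx4 and Isl1 and all parts of Pitx1 stand against the body run of Tbx5. Over all 27 libraries the mean of the 3 hindlimb genes was 35.2% ± 2.35 and Tbx5 was 13.2% ± 3.10. The difference was 22.02 points ± 3.40 (SD), with 14.9 points in the lowest library, a median of 22.1 and 29.6 in the highest, so that the hindlimb mean was higher in 27 of 27 libraries. A two-sided sign-flip permutation test gave p = 1e-05, the smallest that 100000 permutations can give, and the adjusted p over 5 comparisons was also 1e-05. Tbx4 carried much of the mean: leaving it out gave 11.7 points.

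Gene by gene, Tbx4 exceeded Tbx5 by 42.75 points ± 4.01, in 27 of 27 libraries. Pitx1 exceeded it by 15.2 points ± 4.55, also in 27 of 27 libraries, with the smallest difference at 3.31 points. Isl1 exceeded it by 8.07 points ± 4.84, in 26 of 27 libraries, and the exception was 48 h replicate 3 at -1.24 points. Only Pitx1 also had body positions, and its body exceeded the Tbx5 body by 21.8 points ± 11.9, in 26 of 27 libraries, with 30 h replicate 3 at -7.04 points. Each of these 4 had the same smallest p of 1e-05 and adjusted p of 1e-05 by the permutation test. These p-values concern the spread between libraries of 1 cell line, whereas each gene was measured at its own few stretches. The body pieces of Pitx1 and Tbx5 count as body by the outermost gene starts only.

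**Figure D3:**
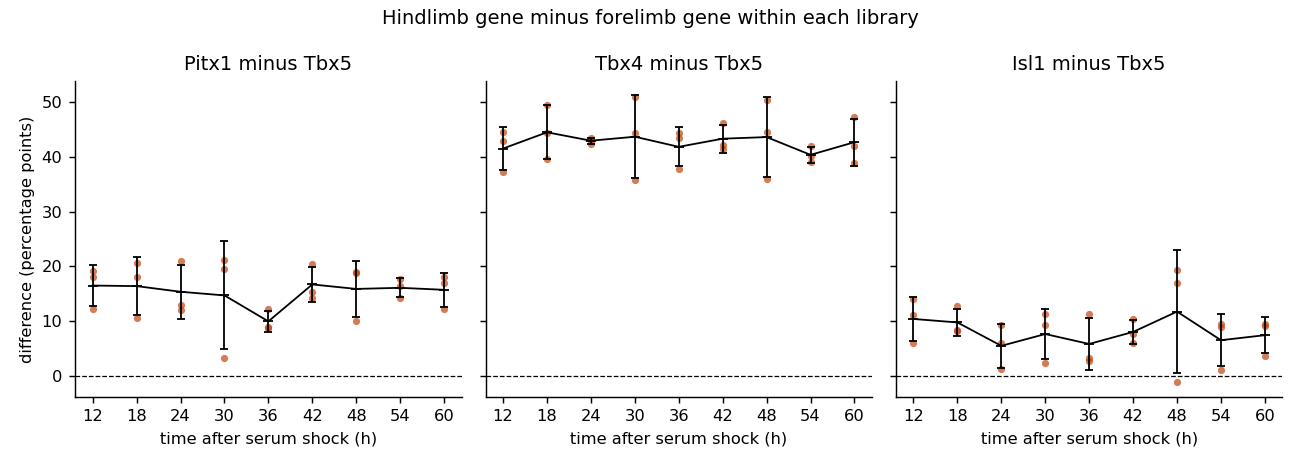
Difference in methylation level, hindlimb gene minus Tbx5, in percentage points (y axis) against time after serum shock in h (x axis); points are libraries, lines and bars the mean and SD of 3 replicates. Tbx4 is at least 35.8 points above Tbx5 in every library, and 1 library of Isl1, at 48 h, falls below 0.

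The hindlimb minus forelimb difference averaged 22.8 points at 12 h, 23.5 at 18 h, 21.3 at 24 h, 22.0 at 30 h, 19.2 at 36 h, 22.7 at 42 h, 23.7 at 48 h, 21.0 at 54 h and finally 21.9 points in the 60 h libraries. The time means spanned 4.54 points, about the spread between replicates at a time point, whose pooled SD was 3.74 points. That span was narrowed by 1 library, 48 h replicate 3, at 14.9 points: without it the span was 8.97 points (permutation p = 0.151). With all libraries, a permutation test of the time labels gave p = 0.888, and the adjusted p over the 5 comparisons was 0.978 for each of them.

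The T-box repressors Tbx2 and Tbx3 had nearly unmethylated stretches just inside their genes. In Tbx2 the level was higher on both sides. In Tbx3 low levels began before the start, and the methylated upstream piece ended at -1550 bp, with no piece from there to -690 bp. Tbx2 (chr11:85832615-85841948, plus strand) had 3.62% ± 2.89 in the piece 31 to 361 bp past its start. Before the start, from -775 to -483 bp, it had 28.6% ± 4.03, in a stretch that also lies in the long noncoding RNA gene 2610027K06Rik. Going into the body, the level was 3.41% in the bin from 600 bp, 26.4% from 800 bp, 39.0% from 900 bp, 74.9% from 1000 bp and 96.1% ± 1.65 from 1200 bp. In the last of these bins the lowest library was at 92.8%. The Tbx2 body stood at 40.4% ± 2.70 and the whole start at 14.1% ± 2.26, a difference of 26.3 points ± 3.78, higher in 27 of 27 libraries (adjusted p = 3.1e-24, limma). Of 5342 genes with a body and a start, 50% were called higher in the body, as Tbx2 was. The Tbx2 upstream stretch held 2 positions at 48.0% and was not tested.

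Tbx3 (chr5:119670534-119684724, plus strand) was the least methylated member start, at 5.42% ± 2.61, with a lowest value of 1.59%, a median of 4.61% and a highest of 12.7%. In the 100 bp before the start it was 1.39% ± 1.62. Its upstream piece, from -1767 to -1550 bp, was nearly fully methylated at 97.1% ± 2.35, with 90.6% in the lowest library and 100% in the highest. The groups of values did not overlap: upstream exceeded the start by 91.7 points ± 3.91, in 27 of 27 libraries (adjusted p = 1.07e-38, limma). With the start taken as 500 bp to either side, the difference was 47.2 points. That setting also moved the upstream border, so that the piece from -690 to -502 bp, at 9.08%, counted as upstream. Among genes with a measured upstream part, 99.25% had a lower level than Tbx3. Of 1415 genes with an upstream part and a start, 64.2% were called higher upstream, as Tbx3 was. The upstream, start and first body pieces of Tbx3 also lie in its antisense long noncoding RNA gene Tbx3os1, and DNA methylation was not assigned to either gene.

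The Tbx3 body, at 4.32% ± 1.10, was called lower than its start by a mean of -1.10 points ± 2.28 (adjusted p = 0.0324, limma), and was higher in 10 of 27 libraries. That call did not hold elsewhere. The difference was -0.11 points (adjusted p = 0.875) with the start at 500 bp to either side, -0.52 (adjusted p = 0.207) as a median of positions and 0.26 (adjusted p = 0.667), the other sign, over 80 bp bins. It was also lost, with values from -1.23 to -0.87 over all single libraries left out, without 12 h replicate 3, 18 h replicate 2, 30 h replicate 2, 42 h replicate 3 or 48 h replicate 2. A small rise in level lay farther in, at 26.6% ± 7.65 in the bin from 2100 bp.

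Tbx15 (chr3:99240348-99354260, plus strand), a skeletal and muscle T-box gene, had 25.9% ± 13.5 over the 12 positions of its start, with 0% in the lowest library, a median of 26.1% and 50.7% in the highest. The spread was the largest of the 7 starts. Its body piece, 593 to 1204 bp past the start, was lower at 9.78% ± 2.33, by a mean of -16.2 points ± 13.6 (adjusted p = 1.44e-06, limma), and was the higher of the 2 in only 3 of 27 libraries. That piece also lies in the long noncoding RNA gene Gm46817, on the opposite strand. Lbx1 (chr19:45232684-45236841, minus strand), the muscle precursor gene, behaved alike in direction: its start was at 21.1% ± 8.03 over 11 positions, with 3.80% in the lowest library, a median of 21.6% and 33.4% in the highest. Its body, at 10.6% ± 1.63 over 154 positions, was lower by a mean of -10.5 points ± 8.66 (adjusted p = 1.13e-06, limma), and higher in 4 of 27 libraries. With positions present in at least 24 libraries the Lbx1 difference was -3.13 points (adjusted p = 0.0157, limma). Of 5342 genes with a body and a start, 21.1% were called lower in the body, as were Tbx15, Lbx1 and, in the main fit, Tbx3.

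**Figure D4:**
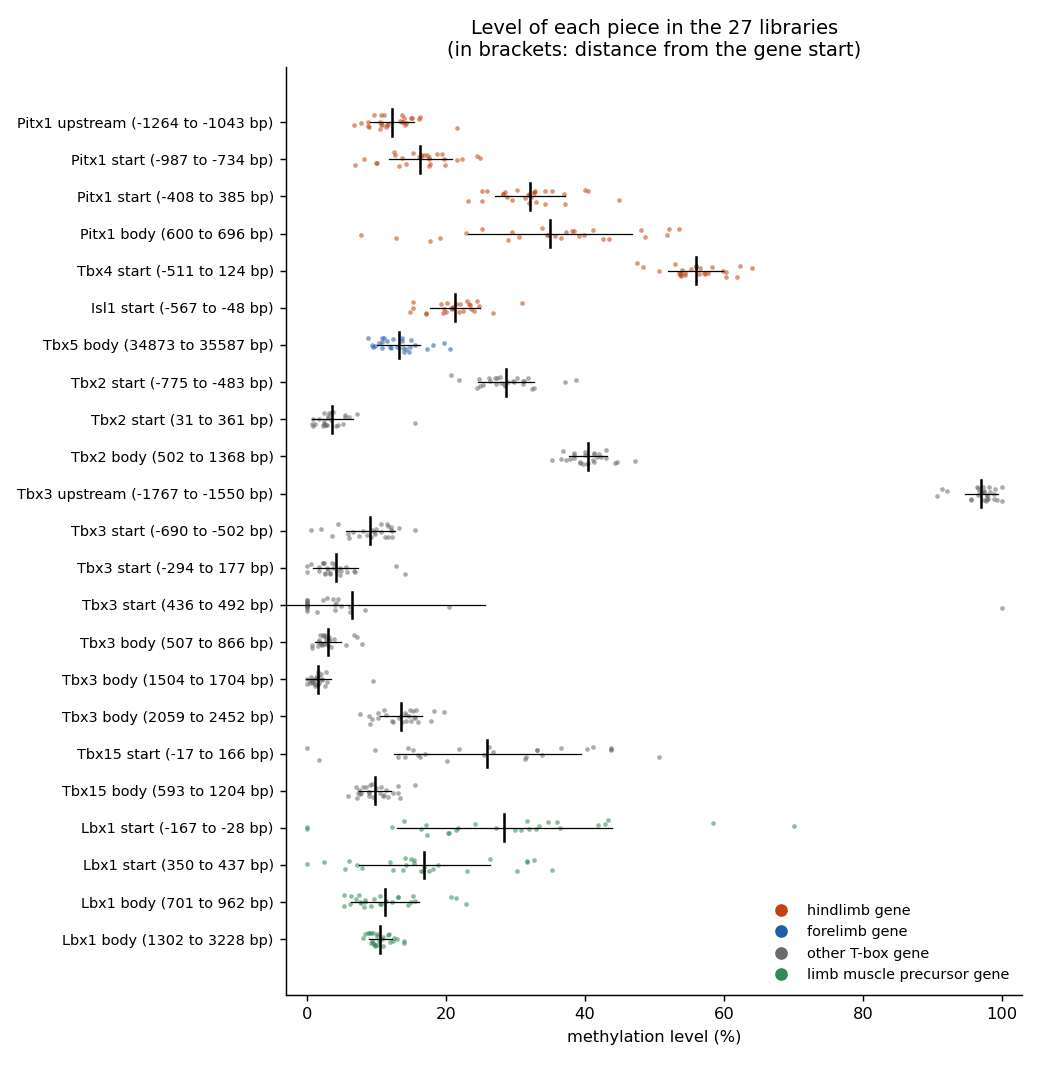
Methylation level in percent (x axis) of each tested piece (rows, with the distance from the gene start in brackets) in each of the 27 libraries (points); vertical ticks are means and horizontal bars SDs. The Tbx3 upstream piece sits above 90% in all libraries, and 1 library stands at 100% in the Tbx3 piece from 436 to 492 bp while all others are at or below 20.5%.

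Ordered by mean start level, the members ran Tbx4, Pitx1, Tbx15, Isl1, Lbx1, Tbx2 and Tbx3. The neighbour pairs and their signs were read from this order in the same 27 libraries. The adjustment covers only those 6 pairs and not the choice of them. Between neighbours, Tbx4 exceeded Pitx1 by 26.0 points ± 6.39, in 27 of 27 libraries (adjusted p = 3e-05 over 6 pairs, two-sided sign-flip permutation test). The next 3 steps were not called by the same permutation test: Pitx1 minus Tbx15 was 3.99 points ± 13.8 (adjusted p = 0.174), Tbx15 minus Isl1 was 4.70 ± 15.0 (adjusted p = 0.170) and Isl1 minus Lbx1 was 0.18 ± 7.78 (adjusted p = 0.907). With the start at 500 bp to either side, Pitx1 minus Tbx15 passed at 6.12 points (adjusted p = 0.0371, permutation test) and Tbx15 minus Isl1 at 7.21 (adjusted p = 0.0314, permutation test). Tbx15 minus Isl1 also passed as a median of positions, at 11.3 points (adjusted p = 0.00194, permutation test). Isl1 and Lbx1 had no settled order: their difference was -2.33 points with the 500 bp bounds and ran from -0.59 without 30 h replicate 3 to 0.67 with single libraries left out. It was below 0 without 18 h replicate 2 or 3, 24 h replicate 2, 30 h replicate 3, 42 h replicate 1 or 3, or 60 h replicate 2. Without 48 h replicate 1, Tbx15 minus Isl1 was 6.01 points and passed (adjusted p = 0.0489, permutation test). Lbx1 exceeded Tbx2 by 6.98 points ± 8.81, in 21 of 27 libraries (adjusted p = 0.00064, permutation test), or by 14.3 points with the start at 500 bp to either side. Tbx2 exceeded Tbx3 by 8.67 points ± 3.00, in 27 of 27 libraries (adjusted p = 3e-05, permutation test), or by 2.36 points with the start at 500 bp to either side and by 4.52 as a median of positions.

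Over the 48 h of the course, no member piece was called by any of 4 tests, all fitted with limma over 21567 pieces of all genes. For a 24 h rhythm, 0 of 23 member pieces were called, against 0% of all pieces. For any difference between time points the counts were 0 of 23 and 0.00464% of all, the single piece being at the start of Pnpla2, a triglyceride lipase gene, named here after its value was seen. For a linear trend and for 60 h minus 12 h the counts were 0 of 23 and 0% each. At an unadjusted p under 0.05, members had 0 pieces for the rhythm and 0 for time points, 3 (13%) for the trend and 2 (8.7%) for 60 h minus 12 h. Among all pieces the shares were 4.25%, 4.43%, 4.96% and 5.32%. The fitted 24 h amplitude of the members had a median of 1.13 points, against 0.88 over all pieces, and the upper 95% limits ran from 2.10 to 19.8 points. For Isl1 the amplitude was 0.51 points with an upper limit of 3.10, for Tbx4 0.84 with 3.68 and for Tbx5 0.95 with 3.16. Rhythms below these limits may be present. The limits hold for each piece alone and are not detection limits. How large a member rhythm had to be for a call was not computed.

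The lowest member p for time was at the Tbx2 piece from -775 to -483 bp, where the trend was -6.90 points per 48 h (SE 1.98; adjusted p = 0.980, limma). Its 3 replicates were at 27.05%, 28.96% and 21.85% at 60 h and at 31.1%, 31.7% and 38.7% at 12 h. The 60 h minus 12 h difference was -7.92 points and was not called (SE 2.95, adjusted p = 0.894, limma). Tbx5 had 14.4% ± 3.14 at 60 h and 10.1% ± 0.75 at 12 h, with a trend of 3.58 points per 48 h (SE 1.71; adjusted p = 0.980, limma).

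**Figure D5:**
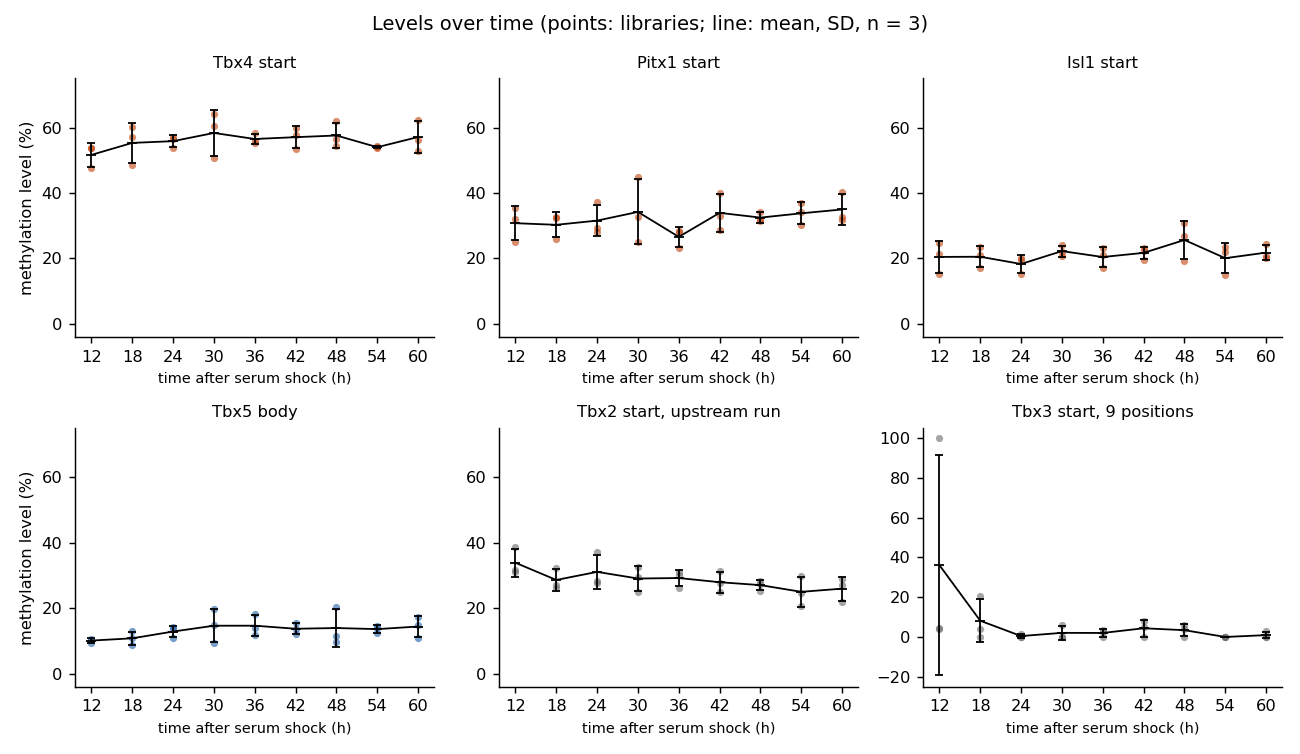
Methylation level in percent (y axis) against time after serum shock in h (x axis) for the starts of Tbx4, Pitx1 (from -408 to 385 bp) and Isl1, the Tbx5 body, the Tbx2 piece before its start and the 9-position Tbx3 piece, which has its own y scale; points are libraries, lines and bars the mean and SD of 3 replicates. The mean levels of Tbx4, Pitx1, Isl1 and Tbx5 keep their order at all 9 time points, and the Tbx3 panel holds 1 point at 100%.

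A single library stood apart in the Tbx3 piece 436 to 492 bp past its start. That library, 12 h replicate 3, was at 100% over all 9 positions, while the other 26 libraries ran from 0 to 20.5%. Close positions move together, so these 9 do not count as 9 separate readings. The same library had the most positions without a value, 21925, and the largest share of positions at 0, 25.4%, of the 27 libraries. With it, 60 h minus 12 h was -35.2 points (SE 14.8; adjusted p = 0.910, limma). Without it the value was -3.22 points, and the trend of the Tbx3 body piece from 507 to 866 bp was -1.35 points per 48 h, against -2.14 with it.

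The labels do not say whether replicates came from separate cultures. The p-values given here therefore reflect how these libraries vary, and that variation may be technical. The table holds levels without coverage, so the depth is unknown. Library mean levels ran from 11.4 to 12.7%.

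Start levels were also read in other genes of limb development. Of 74 listed genes in the gene table, 52 had a strand and 36 a measured start, with a median of 13.5% and a range from 1.66% to 92.2%. The highest were Prrx1, a limb mesenchyme homeobox gene, at 92.2% ± 1.81, Tbx6 at 86.8% ± 4.71 and Sp9 at 57.6% ± 3.93. At the low end were Shox2 at 1.66% ± 1.53, Meis2 at 1.83% ± 1.58 and Meis1 at 2.40% ± 0.52, homeobox genes of proximal limb. The other T-box genes with a start were T at 11.8%, Tbx21 at 18.6%, Eomes at 20.7%, Tbx20 at 28.7% and Tbx6. Of the 133 pieces of 44 such genes, 0 were called for rhythm, time points, trend or 60 h minus 12 h (limma), with 5, 6, 7 and 5 at an unadjusted p under 0.05.

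By mean absolute difference over the 27 libraries, among 36 candidates, the start most like Tbx4 was that of Sp9 (4.61 points), like Pitx1 that of Twist1 (4.76), like Isl1 that of Lmx1b (3.72) and like Tbx2 that of En1 (2.15). For Tbx3 it was Gab1 (1.84), for Lbx1 Sall1 (6.72) and for Tbx15 Msx2 (9.79). Only DNA methylation was measured, so cell identity could not be read from markers. The start of Myog, a myotube gene, stood at 83.9% ± 3.43 and those of Des and Acta1 at 12.2% and 12.4%, while the fibroblast gene Pdgfra was at 63.5% and the neural genes Olig2 and Syn1 at 14.6% and 36.8%.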

How the data were processed

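RRBS was done on 27 C2C12 libraries. The submitters' processing notes name Trim Galore 0.4.0, cutadapt 1.9.1, Bismark 0.14.4, Bowtie2 and mm10; their order and settings were not given in the sources used. The authors deposited 1 table of methylation levels as a fraction per position and library, with no coverage, per the file headers and the values. Levels were multiplied to percent; 871894 of 937644 positions had a value in all 27 libraries. Positions are 1-based: of 249682 inside RefSeq promoters, 99.98% fell on a CpG. Gene bounds are from RefSeq GRCm38.p6. Strand came from its promoter table for 3 members; for 6 it was set by hand from general knowledge. Members, lists and tests were chosen with earlier results of these data known. All members are named; of other limb genes, the 3 highest and lowest starts, the most similar start per member and any called gene. Since Tbx5 had no start value, the planned start comparison became one over windows. limma 3.58.1 (R 4.3.3) was fitted over 21567 pieces of at least 3 positions, or within-library differences over all genes, with Benjamini-Hochberg adjustment at 0.05; fits were tested on simulated data. Single values used 100000 permutations (numpy 2.4.6). Alternatives changed the scale, gap, piece size, positions kept, start bounds, summary, rhythm period, replicate block and libraries. The main tests had no replicate block. Same-numbered libraries had a mean correlation of 0.005 in their deviations from time point means, from -0.038 to 0.047. Other-numbered ones had -0.002, from -0.040 to 0.039. Of the 27 libraries, 16 correlated best on average with their own number out of 3 numbers, which is more than an equal share. Whether the numbers mark pairs was not tested.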

Additional observations from a re-analysis of the deposited data

How the results depend on the processing

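No member piece was called for time under any alternative run (M-values, 100 bp gaps, at least 10 positions, 24 of 27 libraries, library level, replicate block, 20 and 28 h periods, each library left out). With signs flipped by replicate number as a block, the hindlimb minus forelimb differences were unchanged in size at 22.02 points for the mean, 15.2 for Pitx1, 42.75 for Tbx4, 8.07 for Isl1 and 21.8 for the Pitx1 body, and each had p = 0.25, the smallest that 3 numbers allow in this permutation test; the block changed no call of the time tests, and was not run for the start order or the part differences. Leaving out 1 library at a time, these 5 ran from 21.7 to 22.3, 15.0 to 15.7, 42.4 to 43.0, 7.63 to 8.42 and 20.9 to 22.9 points, with the same call. The change of the mean difference over time was not called in any, with permutation p from 0.151 to 0.977. Other start bounds could not be used for it. Tbx15 minus Isl1 starts passed as a median of positions (11.3 points, adjusted p = 0.00194) and with 500 bp to either side (7.21, adjusted p = 0.0314), where Pitx1 minus Tbx15 also passed (6.12, adjusted p = 0.0371; permutation tests); with libraries left out Tbx15 minus Isl1 ran from 3.504 to 6.006. Pitx1 body minus start was 7.25 as a median (adjusted p = 0.0245, limma), 6.75 over 80 bp bins (adjusted p = 0.0106, limma) and 4.29 to 6.51 with libraries left out. Tbx3 body minus start was -0.11, -0.52 and, reversed, 0.26 points with 500 bp bounds, the median and 80 bp bins, and -1.23 to -0.87 with libraries left out; the cause was not tested for any of these. The limits are few positions per piece, close positions that move together, unknown coverage, hand-set strands and gene starts that can come from predicted transcripts.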

Other observations

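Of the member positions, 137 lacked a value in at least 1 library and entered no main comparison; those with a value in 24 or more entered only the alternative that kept such positions. The 7 of Tbx4, 162 to 378 bp past its start and present in 25 to 26 libraries, averaged 79.99%, with position means from 74.8% to 84.4%. The 15 of Isl1, 32 to 120 bp past its start and present in 22 libraries, averaged 18.2%. The 64 of Lbx1 averaged 8.03%, the 34 of Tbx2 18.5%, the 12 of Tbx3 3.65% and the 5 of Tbx15 39.6%. Tbx2 and Tbx4 are neighbours on chromosome 11, as are Tbx3 and Tbx5 on chromosome 5. The 38418 bp between the windows of Tbx2 and Tbx4 and the 105789 bp between those of Tbx3 and Tbx5 held 0 positions with a value in all 27 libraries. Among relatives without a start value, the Tbx1 body stood at 46.9% ± 1.72, the Isl2 body at 40.1% ± 8.90, the Mga body at 9.46% ± 3.13 and the Tbx18 body at 2.68% ± 0.83 (SD, n = 27).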
